A study of Gallus gallus with 12 samples.

Results

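The nuclear genes of the mitochondrial respiratory chain and of ATP synthase were followed in the liver and abdominal fat of chickens fed a high-fat diet (HFD) or a normal diet (ND). A gene was taken as a member when its symbol in all 12 samples began with NDUF followed by A, B, C, S or V and a digit, with UQCR, with COX and a digit or with ATP5, or was an SDH subunit A to D. The rule took 72 of 18332 genes. They were 29 genes of complex I, 3 of complex II, 7 of complex III, 7 of complex IV and 15 of ATP synthase, 61 subunit genes in all, and 11 further genes of assembly or other function (COX10, COX11, COX14 to COX20, ATP5S and ATP5SL). The genes were placed by symbol, so NDUFA4 stands with complex I although its protein is now known as a complex IV subunit. The subunits that the mitochondrial genome encodes were not analysed here.

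Complex I takes electrons from NADH, and complex II takes them from succinate as part of the citric acid cycle. Complex III passes them to cytochrome c, and complex IV passes them on to oxygen. Complexes I, III and IV pump protons, and ATP synthase uses the returning protons to make ATP. In liver the chain carries the energy demand of gluconeogenesis and lipid synthesis, whereas white fat cells hold few mitochondria around a large lipid droplet.

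The samples were HFD liver, ND liver, HFD abdominal fat and ND abdominal fat with 3 samples each. All came from female Xinghua chickens, aged 8 weeks according to the labels, that carry the sex-linked dwarf (dw) mutation of the growth hormone receptor gene, so the controls share this mutation with the HFD birds. Per the methods, 8 weeks was the age at which feeding of the diets began. The tissues were taken after the feeding period, so the birds were older at sampling. The birds lived in individual cages, and the authors chose for sequencing 3 HFD birds with a higher and 3 ND birds with a lower abdominal fat rate, so diet and fatness cannot be told apart. Liver and abdominal fat were taken from the same birds, so the 6 liver and the 6 fat samples are not independent of each other. RNA was extracted with Trizol. The values are FPKM, fragment counts corrected for transcript length and for the mapped fragments of each sample, and the depth of the samples is unknown because the files hold no counts. The labelled tissues had their markers. All 6 hepatocyte markers were higher in liver and all 5 adipocyte markers measured were higher in abdominal fat, each without overlap between the 6 liver and the 6 fat samples. Genes at or above 1 FPKM numbered 10799 to 11270 in liver and 12221 to 12492 in abdominal fat, and the 10 most abundant genes took 25.6% to 30.1% of all FPKM in liver against 9.30% to 9.95% in abdominal fat.

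The 72 genes were abundant in both tissues. Their median level was 117 ± 6.57 FPKM in liver and 100 ± 12.6 FPKM in abdominal fat (SD, n = 6 each), and the median member stood at percentile 96.5 to 96.9 of all genes in the liver samples and 95.2 to 96.6 in the fat samples. Together they took 1.62% ± 0.056 of all FPKM in liver and 1.73% ± 0.20 in abdominal fat. The mean shares differed by less than the SD of the fat samples, which includes the low first ND fat sample (1.38%). The other fat samples held 1.69% to 1.99%, against 1.56% to 1.70% in the liver samples. By this share the members were thus not more abundant in liver. The complex IV subunits were the most abundant, with a median of 218 ± 18.04 FPKM in liver and 213 ± 36.5 FPKM in abdominal fat. The complex II subunits were the least abundant subunits, with a median of 95.9 ± 5.89 FPKM in liver and 62.0 ± 9.07 FPKM in abdominal fat. With 3 genes this median was the level of SDHC in every fat sample. Their summed FPKM was 239 ± 14.5 in liver and 210 ± 20.7 in abdominal fat, with overlap. The assembly and other genes lay far below the subunits, at a median of 10.4 FPKM in liver and 8.67 FPKM in abdominal fat.

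**Figure D1:**
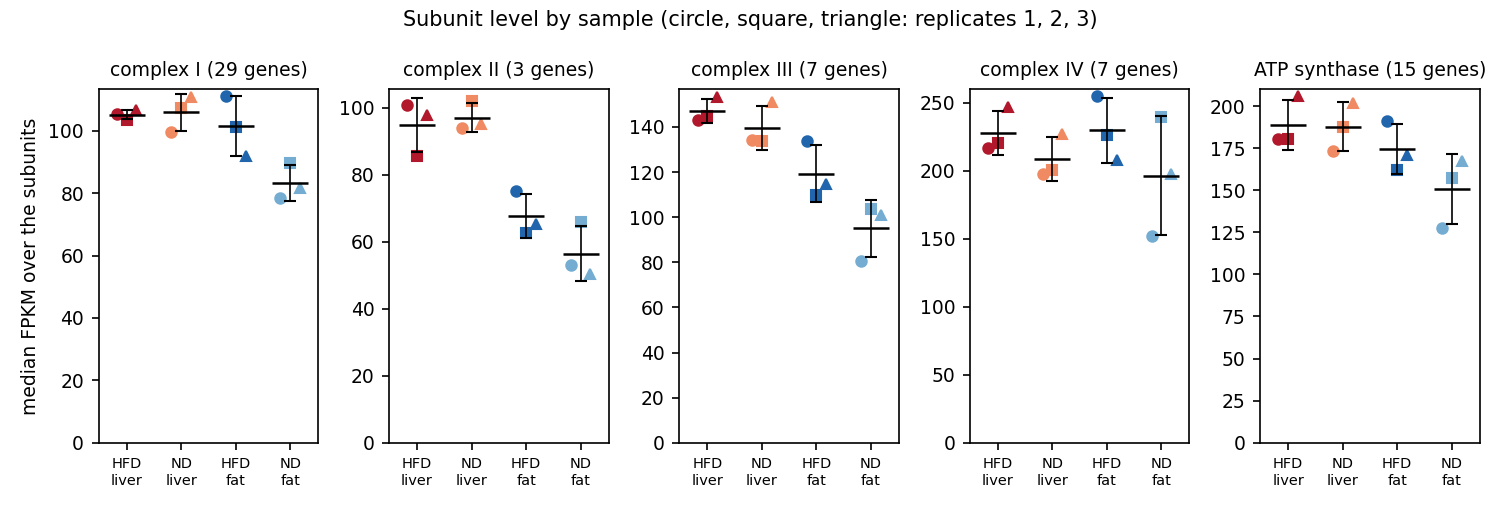
Median FPKM over the subunits of each complex (vertical axis, from 0) in each sample, with HFD liver, ND liver, HFD abdominal fat and ND abdominal fat from left to right. Symbols are replicates, and horizontal lines with bars are means ± SD of 3 samples. By this median the 6 liver samples lie above the 6 fat samples for complex II, and barely so for complex III (133.64 against 133.6 FPKM). In every fat sample the complex II median is the level of SDHC and the complex III median that of UQCRFS1. The summed FPKM overlap between the tissues. HFD fat 1 is at 235 for complex II, against 214 in HFD liver 2. For complex III it is at 1064, against 970 in ND liver 1. The first ND fat sample is the lowest for complexes I, III, IV and ATP synthase.

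The order of the subunits was much alike in the tissues. Across the 72 members the mean log2 levels of liver and abdominal fat had a Pearson r of 0.973 and a Spearman rho of 0.954, and across the 61 subunits alone 0.934 and 0.936. These describe genes, which are not independent replicates, and they share the gene lengths and the processing. In both tissues the most abundant subunit gene was NDUFB2 in complex I, SDHB in complex II, UQCRH in complex III, COX6A1 in complex IV and ATP5B in ATP synthase. COX6A1, which encodes a subunit of cytochrome c oxidase, had 476, 518 and 618 FPKM as lowest, median and highest value in liver, and 403, 514 and 652 FPKM in abdominal fat. COX18, an assembly protein that helps to insert a mitochondrially made oxidase subunit into the inner membrane, was the least abundant member, at 1.24 ± 0.34 FPKM in liver and 1.54 ± 0.33 FPKM in abdominal fat (SD, n = 6 each).

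The comparison of liver with abdominal fat asked which members differ between the tissues, averaged over the diets. Of the 72 members, 32 were higher and 13 lower in liver by limma with a Benjamini-Hochberg adjusted p of 0.05 or less, while of all 15442 genes tested 16.4% were higher and 62.4% lower. The log2 fold change, liver over abdominal fat on the log2(FPKM + 1) scale, was positive in 50 members and negative in 22, against 24.9% and 75.1% of all genes, and its median was 0.17 for the members and -0.52 for all genes. Within HFD the median difference of the members was 0.10 with 45 positive, and within ND 0.29 with 56 positive. Without the first ND fat sample the median over both diets was 0.099. The liver and fat samples did not overlap in 21 higher and 2 lower members, against 11.4% and 50.3% of all genes. The direction of the lower members rested on the scaling of the samples. The samples were scaled to a common median ratio across genes, which moved the median of all genes to -0.08. Then 64 members were higher and 1 lower, against 4841 and 6199 of all 15396 genes tested. Quantile normalization moved the median of all genes to -0.01. With it 42 members were higher and 5 lower, against 5376 and 5673 of all 15442 genes tested. All 32 higher members were kept under both scalings, but 12 of the 13 lower members turned positive under the first and 4 under the second. Both scalings raised the median of the members, to 0.84 and 0.30. The sum of all FPKM was itself higher in liver, at 564751 to 618324 against 459367 to 499661 in abdominal fat. Scaling to equal sums, which would lower the log2 fold changes, was not run, so the higher calls were not tested against it. The 5 members lower under quantile normalization were COX17 (-0.81), COX6C (-0.66), NDUFA4 (-0.54), ATP5I (-0.52) and ATP5E (-0.41). In bulk tissue, fewer cells of a type and less RNA per cell cannot be told apart.

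**Figure D2:**
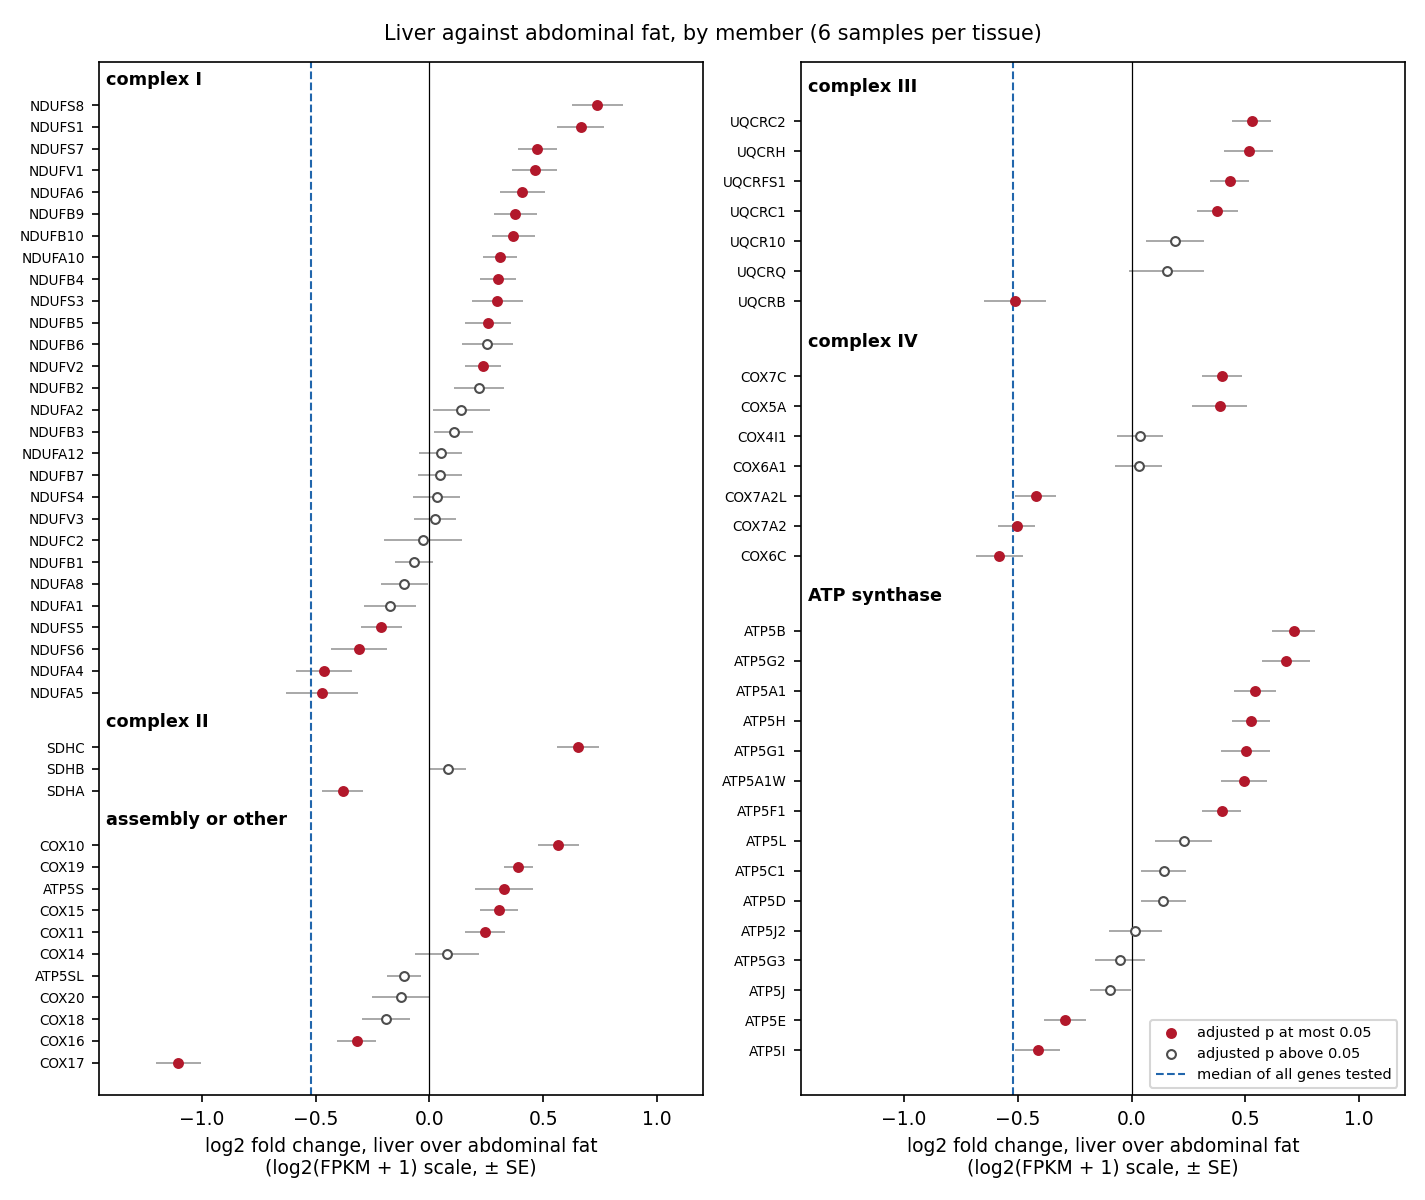
Log2 fold change of members, liver over abdominal fat (horizontal axis, log2(FPKM + 1) scale), with its SE, by complex. Filled points passed an adjusted p of 0.05 with limma, and the dashed line is the median of all genes tested (-0.52). The points are 71 of the 72 members. The core subunits NDUFS8 (0.74) and NDUFS1 (0.66) lie high in complex I, and COX17 (-1.10) is the lowest of all members.

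Within complex I the subunits were divided by role. The 7 core subunits measured here, which carry the flavin, the iron-sulfur clusters and the quinone site and have counterparts in bacteria, were all higher in liver, with a median log2 fold change of 0.47. Of the 22 accessory subunits, with NDUFA4 counted among them by symbol, 6 were higher and 4 lower, with a median of 0.05. Of all genes tested, 16.4% were higher and 62.4% lower. This division was drawn after the values had been seen. The ranges of the 2 classes overlapped, with the core subunit NDUFV2 at 0.23 and the accessory subunit NDUFA6 at 0.41. NDUFS8, an iron-sulfur subunit, had 124, 135 and 168 FPKM as lowest, median and highest value in liver and 69.2, 76.9 and 111 FPKM in abdominal fat, and it was 0.74 ± 0.11 (SE) higher on the log2 scale (adjusted p = 8.8e-05 with limma). NDUFS1, the largest iron-sulfur subunit, had 44.6, 51.9 and 63.6 FPKM in liver and 26.7, 32.9 and 36.9 FPKM in abdominal fat. These genes did not overlap between the tissues, and neither did NDUFS7 (0.47) and NDUFV1 (0.46), the flavin subunit that takes up NADH.

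The accessory subunits NDUFA5 and NDUFS6, and NDUFA4, which was counted with them by symbol, went the other way at the deposited scale. The log2 fold changes of NDUFA5, NDUFA4 and NDUFS6 were -0.47, -0.46 and -0.31. NDUFA4 had 132, 145 and 180 FPKM in liver and 142, 220 and 230 FPKM in abdominal fat, so its tissues overlapped through the lowest fat sample. Under median-ratio scaling these 3 genes were at 0.19, 0.21 and 0.36, and under quantile normalization at 0.00032, -0.54 and -0.02.

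Ratios of 2 subunits in the same sample do not change when the sample is scaled by a common factor, as in median-ratio scaling. Under quantile normalization they can change. At the deposited scale 10 such ratios and shares were computed, all chosen after the values had been seen and therefore given without a test. SDHC to SDHA, UQCRC2 to UQCRB, COX5A to COX6C and ATP5B to ATP5E each set a member called higher in liver over a member called lower. That choice favoured a separation of the tissues, so their lack of overlap is a description of these pairs only. The summed FPKM of the complex I core subunits was 0.309 ± 0.017 of that of the accessory subunits in liver and 0.225 ± 0.011 in abdominal fat (SD, n = 6 each). NDUFA4 was part of the accessory sum. The liver samples ranged from 0.289 to 0.332 and the fat samples from 0.213 to 0.240, with no overlap. Within liver, the HFD samples lay at 0.289 to 0.303 and the ND samples at 0.305 to 0.332. Within abdominal fat, the HFD samples lay at 0.213 to 0.230 and the ND samples at 0.216 to 0.240.

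Complex II is the only complex of the chain made of nuclear subunits alone, and its subunits moved apart. SDHC, a membrane anchor, had 85.7, 96.4 and 112 FPKM as lowest, median and highest value in liver, against 50.2, 63.9 and 75.0 FPKM in abdominal fat, and was higher in liver without overlap (log2 fold change 0.65 ± 0.09 SE, adjusted p = 4.5e-05 with limma). SDHA, the flavoprotein that oxidizes succinate, had 30.5, 39.1 and 48.2 FPKM in liver and 43.9, 50.5 and 53.9 FPKM in abdominal fat, a log2 fold change of -0.38 (adjusted p = 0.0022 with limma) that became 0.28 under median-ratio scaling and 0.04 under quantile normalization. SDHB, the iron-sulfur subunit between them, had 89.9 to 112 FPKM in liver and 79.0 to 106 FPKM in abdominal fat and did not pass the test (0.08, adjusted p = 0.37 with limma). The ratio of SDHC to SDHA within a sample was 2.60 ± 0.58 in liver and 1.24 ± 0.12 in abdominal fat (SD, n = 6 each). The lowest liver sample was at 2.03 and the highest fat sample at 1.39. SDHD was not analysed here.

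In complex III, 4 of 7 genes were higher in liver, against 16.4% of all genes. UQCRC2, a core protein that anchors the complex on the matrix side, had 106, 113 and 121 FPKM in liver and 63.7, 78.4 and 91.1 FPKM in abdominal fat (log2 fold change 0.53 ± 0.09 SE, adjusted p = 0.00015 with limma). UQCRC1, its partner, was 0.38 higher, UQCRFS1, the Rieske iron-sulfur protein, was 0.43 higher, and UQCRH, the hinge protein that meets cytochrome c, was 0.51 higher. These 4 genes did not overlap between the tissues. UQCRB, a small subunit beside the quinone site, had 31.0, 39.9 and 46.6 FPKM in liver and 38.7, 58.7 and 74.5 FPKM in abdominal fat, a log2 fold change of -0.51 that turned to 0.15 under median-ratio scaling. The ratio of UQCRC2 to UQCRB was 2.88 ± 0.32 in liver and 1.39 ± 0.18 in abdominal fat (SD, n = 6 each), without overlap.

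In complex IV, 2 of 7 genes were higher and 3 lower, against 16.4% and 62.4% of all genes. COX5A, a nuclear subunit on the matrix side, had 261, 268 and 351 FPKM in liver and 152, 232 and 255 FPKM in abdominal fat (log2 fold change 0.39). COX7C was higher to the same extent (0.40). COX6C, a subunit that spans the membrane once, had 125, 157 and 172 FPKM in liver and 198, 221 and 269 FPKM in abdominal fat, and every liver sample was below every fat sample at the deposited scale (-0.58). COX6C was at 0.09 under median-ratio scaling and at -0.66 under quantile normalization. COX7A2 (-0.50) and COX7A2L (-0.42), whose product joins complexes III and IV into supercomplexes in mice, were also lower at the deposited scale, at 0.16 and 0.24 under median-ratio scaling. COX4I1 had 227, 253 and 299 FPKM in liver and 204, 255 and 289 FPKM in abdominal fat, and the difference of 0.04 ± 0.10 (SE) did not pass the test. The ratio of COX5A to COX6C was 1.88 ± 0.18 in liver and 0.963 ± 0.15 in abdominal fat (SD, n = 6 each), without overlap.

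In ATP synthase, 7 of 15 genes were higher and 2 lower in liver, against 16.4% and 62.4% of all genes. ATP5B, the catalytic beta subunit, had 508, 584 and 645 FPKM in liver and 267, 378 and 413 FPKM in abdominal fat (log2 fold change 0.71 ± 0.09 SE, adjusted p = 2.7e-05 with limma). ATP5A1, the alpha subunit that forms the catalytic head with ATP5B, was 0.54 higher. RefSeq places this gene on chromosome Z and its near-identical copy ATP5A1W on chromosome W, and how reads were divided between the copies is uncertain. The ratio of ATP5A1 to ATP5A1W was 3.67 ± 0.47 in liver and 3.54 ± 0.20 in abdominal fat (SD, n = 6 each), with overlap. ATP5I and ATP5E, which encode the membrane subunit e and the small epsilon subunit of the central stalk, were at -0.41 and -0.29 at the deposited scale at 0.26 and 0.38 under median-ratio scaling, and at -0.52 and -0.41 under quantile normalization. ATP5B exceeded ATP5E by a ratio of 2.88 ± 0.32 in liver and 1.43 ± 0.13 in abdominal fat (SD, n = 6 each), without overlap.

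ATP5G1, ATP5G2 and ATP5G3 encode the same mature c subunit, which forms the rotating ring in the membrane. ATP5G2 had 137, 144 and 186 FPKM in liver and 67.9, 95.8 and 120 FPKM in abdominal fat and was 0.68 higher, and ATP5G1 was 0.50 higher. ATP5G3 did not pass the test, with 202 ± 21.0 FPKM in liver and 211 ± 38.6 FPKM in abdominal fat (SD, n = 6 each). Of the summed FPKM of the 3 genes, ATP5G3 held 30.1% ± 1.65 in liver and 39.6% ± 1.43 in abdominal fat, without overlap. ATP5G2 held 22.5% ± 1.95 in liver and 17.8% ± 0.79 in abdominal fat, also without overlap. ATP5G1 held 47.4% ± 2.25 in liver and 42.6% ± 1.30 in abdominal fat, with overlap.

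**Figure D3:**
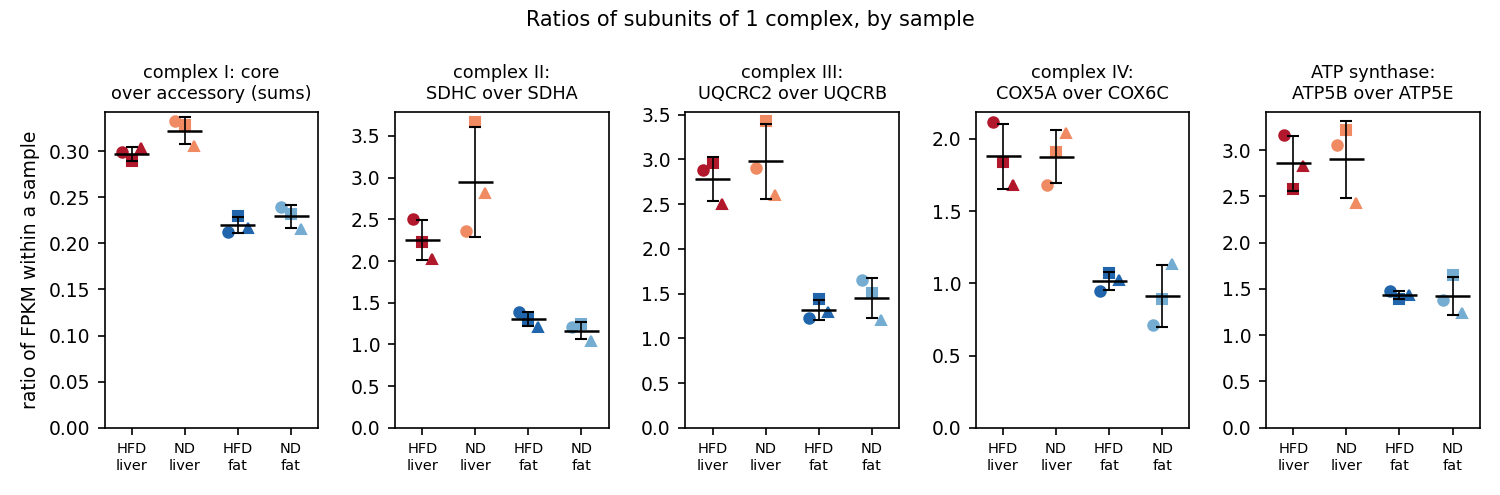
Ratios of the FPKM of subunits of 1 complex within each sample (vertical axes, from 0), with HFD liver, ND liver, HFD abdominal fat and ND abdominal fat from left to right. Symbols are replicates and lines with bars are means ± SD of 3 samples. In all 5 panels the 6 liver samples lie above the 6 abdominal fat samples, a separation that the choice of the genes favoured.

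Of the 11 assembly and other genes, 5 were higher and 2 lower in liver, against 16.4% and 62.4% of all genes. COX17, the chaperone that brings copper to the assembling oxidase, had 36.6, 39.3 and 45.8 FPKM in liver, against 72.7, 88.5 and 103 FPKM in abdominal fat. COX17 had the most negative log2 fold change of the members (-1.10 ± 0.10 SE, adjusted p = 1.0e-06 with limma) and was the only member that stayed lower at that threshold under median-ratio scaling (-0.44). COX10, which makes the first step from heme B to heme A, had 7.36, 10.5 and 13.3 FPKM in liver and 5.39, 6.28 and 7.51 FPKM in abdominal fat (0.57). COX19, which also serves copper delivery, was 0.39 higher in liver without overlap, and COX15, the next enzyme of heme A synthesis, was 0.31 higher.

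Other gene groups of the mitochondrion and of large protein machines were compared at the deposited scale. There all genes had a median log2 fold change of -0.52, with 16.4% higher and 62.4% lower in liver. The 71 mitochondrial ribosomal protein genes had a median of -0.0048, with 18 higher and 22 lower. The 31 proteasome subunit genes had a median of -0.52, with 1 higher and 23 lower. The 71 cytosolic ribosomal protein genes had a median of -0.54, with 1 higher and 64 lower. Both medians were near that of all genes. The 26 assembly factor genes measured, of 41 listed, had a median of -0.12, with 6 higher and 8 lower. Among 14 regulators of mitochondrial genes measured, of 15 listed, 3 were higher and 5 lower. PPARGC1A, a coactivator that drives mitochondrial gene expression in mammals, had 10.4, 15.5 and 3.25 FPKM in HFD liver and 15.7, 12.7 and 10.8 FPKM in ND liver, against 0.16 to 0.55 FPKM in the 6 fat samples. PPARA, a nuclear receptor of fatty acid oxidation, had 21.9 to 44.1 FPKM in liver and 1.56 to 3.83 FPKM in abdominal fat. GABPA, a factor that binds promoters of many chain subunits in mammals, was lower in liver at the deposited scale (-0.89). It had 8.57 to 15.6 FPKM in liver and 21.4 to 25.1 FPKM in abdominal fat.

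The comparison of HFD with ND in abdominal fat gave 0 called members by limma, while among all 15412 genes tested 0% were higher and 0.00649% lower. The smallest adjusted p of a member was 0.77. At an unadjusted p under 0.05, 7 members were higher and 0 lower, against 2.91% and 3.4% of all genes. The members had a positive log2 fold change in 66 of 72 genes, against 44.3% of all genes, with a median of 0.22 for the members and -0.03 for all genes. The HFD and ND fat samples did not overlap in 18 members, all higher in HFD, against 5.33% of all genes higher and 8.14% lower. Some other gene groups leaned the same way in fat, but not all did. The proteasome subunit genes were positive in 28 of 31 with a median of 0.19 and did not overlap, higher in HFD, in 10. The mitochondrial ribosomal protein genes were positive in 55 of 71 with a median of 0.13 and did not overlap in 16. The cytosolic ribosomal protein genes were positive in 58 of 71 with a median of 0.06. They did not overlap, higher in HFD, in 4 (5.63%), near the share of all genes. The regulators of mitochondrial genes leaned the other way. They were positive in 2 of 14 with a median of -0.07, and did not overlap in 0 higher and 2 lower.

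The shift rested largely on 1 sample of each diet. The summed FPKM of the 72 members was 9923, 8794 and 8552 in HFD fat and 6327, 8378 and 8339 in ND fat. The first ND sample was the lowest of the 6 in 56 members, against 15.9% of all genes, and the first HFD sample was the highest in 55 members, against 16.9% of all genes. Without the first ND sample 60 of 72 members were positive with a median of 0.10, and without the first HFD sample 64 were positive with a median of 0.16. Without both, an alternative added after the values were seen, 50 were positive, the median was 0.03, and 0 members passed an unadjusted p of 0.05. The number at an unadjusted p under 0.05 was 1, 2 and 3 without HFD sample 1, 2 and 3, and 4, 9 and 9 without ND sample 1, 2 and 3. All of these members were higher in HFD. Of all genes, 307, 441, 325, 373, 552 and 576 were higher in the same order, with 15351 to 15418 tested.

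**Figure D4:**
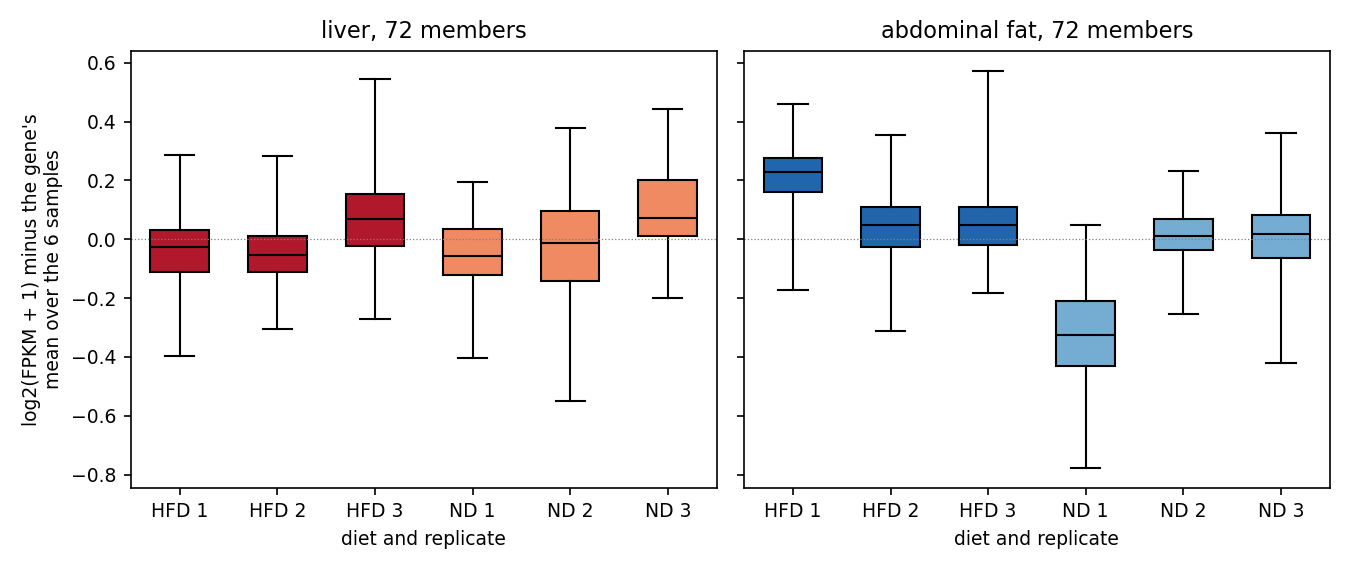
Deviation of each of the 72 members from its own mean over the 6 samples of the tissue, on the log2(FPKM + 1) scale (vertical axis), by sample, with HFD left of ND. Boxes span the quartiles with the median as a line, and whiskers reach the lowest and highest member. In abdominal fat the first HFD sample lies above and the first ND sample below the other 4, and in liver the boxes of the diets overlap.

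Some cell type markers were extreme in the same samples, and others in different samples. The summed level of the 6 skeletal muscle markers measured was 379 FPKM in the first HFD fat sample and 16.5 to 61.5 FPKM in the other 5 fat samples. Most of this sum was ACTA1, with 248 FPKM in the first HFD sample and 13.1 to 57.8 FPKM in the other 5. CKM, the muscle creatine kinase, had 47.0, 0.05 and 0.13 FPKM in HFD fat and 0.22, 0.26 and 0.69 FPKM in ND fat, and TNNC2, a fast-muscle troponin, had 27.4 FPKM in the first HFD sample and at most 0.74 FPKM in the others. TNNT3 and MYOZ1 were also highest in the first HFD sample. PVALB went the other way and was lowest there, at 0.18 FPKM against 0.19 to 0.55 FPKM in the other 5. In the first ND fat sample the leukocyte markers PTPRC and CD3E summed to 37.6 FPKM, against 17.6 to 27.4 FPKM in the other 5, and IGLL1, an immunoglobulin light chain gene, had 3389 FPKM, against 7.56 to 43.6 FPKM. In the second ND fat sample ALB, the hepatocyte gene of serum albumin, had 2887 FPKM, against 0.86 to 70.0 FPKM in the other 5. The 2 erythroid markers measured summed to 670, 499 and 599 FPKM in HFD fat and 180, 263 and 1177 FPKM in ND fat. Of the 5 adipocyte markers measured, PLIN1, FABP4, LPL and CIDEC were lowest in the first ND fat sample, and ADIPOQ was highest there. Some markers also differed between the diets, in part through 1 sample. All 6 hepatocyte markers had a negative log2 fold change of HFD over ND in fat, with a median of -2.35. Only 2 of the 6 did not overlap between the diets. ALB, AHSG, FGB, TTR and SERPINC1 were by far highest in the second ND sample, with 174 FPKM for AHSG and 147 FPKM for FGB. In the first ND sample AHSG and FGB had 1.57 and 1.35 FPKM, against 1.53 and 1.75 FPKM in the first HFD sample. The summed level of the 6 hepatocyte markers was 605, 596 and 998 FPKM in HFD fat and 2316, 4964 and 2269 FPKM in ND fat. Of this sum, APOA1 had 575, 592 and 951 FPKM in HFD fat and 2287, 1526 and 2183 FPKM in ND fat, and AHSG was listed at 0 in the second HFD sample. PTPRC had 11.9, 11.4 and 11.3 FPKM in HFD fat and 21.4, 18.6 and 12.1 FPKM in ND fat, and CD3E had 6.81, 6.19 and 7.96 FPKM in HFD fat and 16.2, 8.76 and 9.61 FPKM in ND fat, so both were lower in every HFD sample. No marker passed the adjusted threshold. The part of these markers in the result was not tested.

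By complex, the median log2 fold change of HFD over ND in fat was 0.23 in complex I, 0.16 in complex II, 0.29 in complex III, 0.22 in complex IV, 0.26 in ATP synthase and 0.12 in the assembly and other genes. All 15 ATP synthase genes were positive, and 8 of them did not overlap between the diets. Of all genes, 5.33% did not overlap higher and 8.14% lower in HFD. The limit set by the first HFD and first ND samples holds for these values too. NDUFB2, an accessory subunit of complex I, had 395, 326 and 319 FPKM in HFD fat and 188, 281 and 256 FPKM in ND fat, so every HFD sample was above every ND sample (log2 fold change 0.53 ± 0.18 SE, unadjusted p = 0.022 and adjusted p = 0.77 with limma). NDUFB7, another accessory subunit, had 179, 178 and 172 FPKM in HFD fat and 108, 144 and 151 FPKM in ND fat (0.41). COX7A2 had 55.8, 51.9 and 55.9 FPKM in HFD fat and 38.9, 41.3 and 48.8 FPKM in ND fat (0.34).

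COX7A2L differed little among replicates, with 46.0, 47.6 and 46.6 FPKM in HFD fat and 40.2, 40.6 and 39.1 FPKM in ND fat. Its log2 fold change was 0.22 ± 0.07 (SE, unadjusted p = 0.022 and adjusted p = 0.77 with limma), and neither the first HFD nor the first ND sample stood apart in it. UQCRFS1 had 134, 110 and 114 FPKM in HFD fat and 80.6, 104 and 101 FPKM in ND fat (0.33). ATP5E had 279, 283 and 268 FPKM in HFD fat and 193, 227 and 252 FPKM in ND fat (0.31). ATP5G3 had 258, 248 and 208 FPKM in HFD fat and 150, 200 and 203 FPKM in ND fat (0.37). These genes did not overlap between the diets, and the difference of none of them passed the adjusted threshold.

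The comparison of HFD with ND in liver also gave 0 called members, and 0% of all 14510 genes tested were called in either direction. At an unadjusted p under 0.05, 0 members were higher and 2 lower, against 9.93% and 3.94% of all genes. The members were positive in 33 of 72 genes, and negative in 39, against 61.2% and 38.8% of all genes, with a median log2 fold change of -0.02 for the members and 0.07 for all genes. Under median-ratio scaling, 17 were positive and the median was -0.12 for the members and 0.01 for all genes. The HFD and ND livers did not overlap in 2 members higher and 7 lower in HFD, against 14.3% and 5.82% of all genes.

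NDUFV1 had 172, 168 and 175 FPKM in HFD liver and 206, 217 and 231 FPKM in ND liver. The spread within each diet was smaller than the gap between them (log2 fold change -0.34 ± 0.11 SE, unadjusted p = 0.016 and adjusted p = 0.29 with limma). COX10 had 7.36, 9.92 and 8.14 FPKM in HFD liver and 11.0, 13.3 and 11.5 FPKM in ND liver (-0.45 ± 0.15 SE, unadjusted p = 0.018 and adjusted p = 0.30 with limma). ATP5B, NDUFB6, COX6A1 and ATP5SL were also below ND in every HFD sample, with log2 fold changes of -0.13, -0.17, -0.17 and -0.25. NDUFS6, an accessory subunit that binds zinc, had 61.9, 62.0 and 65.9 FPKM in HFD liver and 55.1, 38.0 and 58.4 FPKM in ND liver (0.34), and COX18 had 1.70, 1.48 and 1.30 FPKM in HFD liver and 1.04, 0.72 and 1.19 FPKM in ND liver (0.33). By complex, the median in liver was -0.03 in complex I, -0.04 in complex II, 0.06 in complex III, -0.05 in complex IV and -0.02 in ATP synthase.

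**Figure D5:**
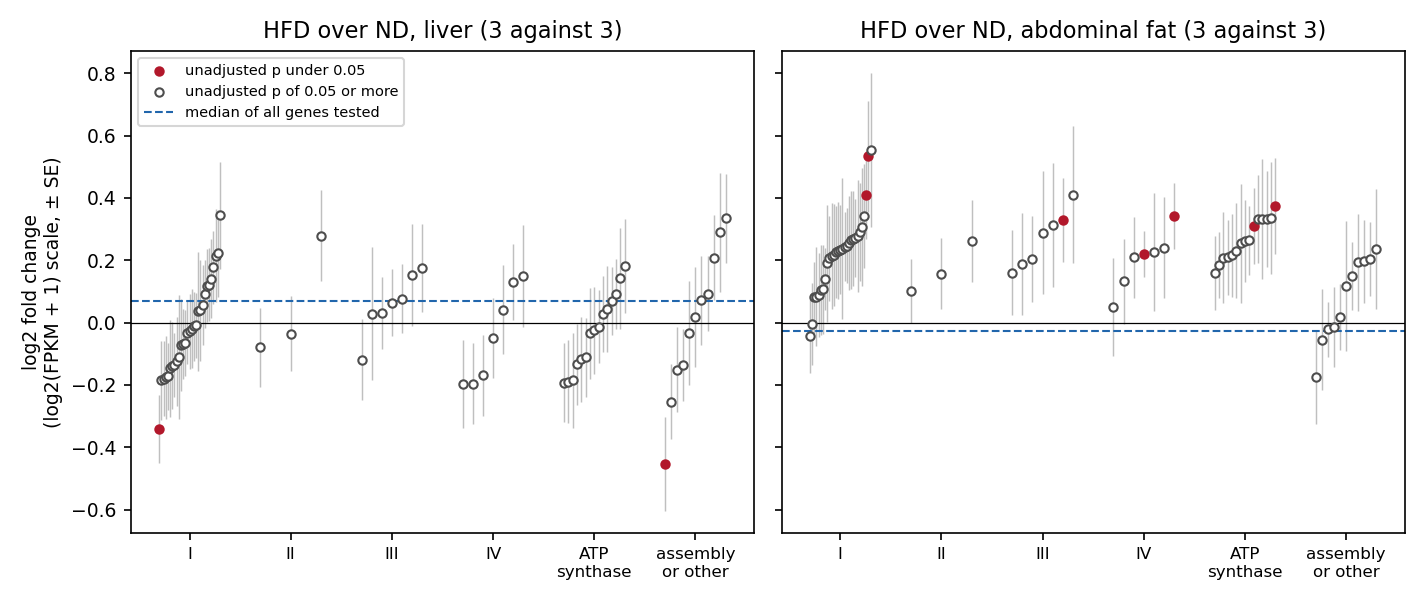
Log2 fold change of each member, HFD over ND (vertical axis, log2(FPKM + 1) scale), with its SE, in liver (left) and abdominal fat (right), by complex. Filled points had an unadjusted p under 0.05 with limma and the dashed lines are the medians of all genes tested (0.07 in liver and -0.03 in abdominal fat). In abdominal fat 66 of 72 members lie above 0, and in liver 33 do.

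The interaction of diet and tissue, fitted over all 12 samples, tested whether liver and abdominal fat differed in their diet effect. By limma 0 members were called, against 0.00648% of all genes higher and 0% lower, and the smallest adjusted p of a member was 0.28. At an unadjusted p under 0.05, 0 members had a more positive and 8 a more negative diet effect in liver than in abdominal fat, against 9.21% and 3.39% of all 15442 genes. The difference was negative in 61 of 72 members, against 38.1% of all genes, with a median of -0.25 for the members and 0.10 for all genes. It shares the first HFD and first ND fat samples with the fat comparison. Without the first ND fat sample 52 members were negative with a median of -0.11. Without the first HFD fat sample 59 were negative with a median of -0.17. In each of these fits 4 members had an unadjusted p under 0.05, all negative. Of all genes, 475 of 15423 and 421 of 15409 were negative at that threshold. COX10 had the smallest p. It was higher in every HFD than in every ND sample in fat, with 7.19, 6.31 and 7.51 FPKM in HFD fat and 6.19, 6.26 and 5.39 FPKM in ND fat, and lower in liver (difference of the log2 fold changes -0.66, adjusted p = 0.28 with limma). ATP5B also lay on opposite sides without overlap. It had 413, 394 and 383 FPKM in HFD fat and 267, 373 and 313 FPKM in ND fat. In liver it had 570, 508 and 584 FPKM with HFD and 585, 645 and 594 FPKM with ND. The closest samples of the diets were at 383.22 and 373.2 FPKM in fat and at 583.58 and 584.89 FPKM in liver. The liver log2 fold change was -0.13 ± 0.13 (SE, unadjusted p = 0.34 with limma).

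The spread between replicates set what could be seen. In data simulated with the means and spread of these samples, genes drawn from the more abundant ones were changed. Of those changed by 1 on the log2 scale, 63% were called in fat, 52.5% in liver and 36% in the interaction. Of those changed by 0.5, 0% were called in any of these comparisons. The changed genes were not chosen from the members, so these shares are not detection rates of the members. The simulated tissue comparison, in which only 200 genes differed, called 86% at 1, 50.5% at 0.5 and 0% at 0.25. In the data 16.4% of all genes were higher and 62.4% lower in liver, which loosens the adjusted threshold. The simulated shares therefore do not give the limit of the real tissue comparison. NDUFV2, at 0.23, was called in it (adjusted p = 0.018 with limma). The largest diet effect of a member was 0.55, for NDUFC2 in fat, with 59.7, 64.1 and 84.6 FPKM in HFD fat and 32.5, 50.6 and 60.8 FPKM in ND fat. Within a group, the median coefficient of variation of the members was 6.96% in HFD liver, 10.2% in ND liver, 9.48% in HFD fat and 15.1% in ND fat. For all of the more abundant genes it was 11.1%, 13.9%, 9.31% and 12.7% in the same order.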

How the data were processed

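RNA of liver and abdominal fat was sequenced on the BGISEQ-500 platform by the authors. The deposited values are FPKM per gene and sample, rounded by the authors to 2 decimals. Per the submitters' processing notes the tools included HISAT2 2.0.4, Bowtie2 2.2.5 and RSEM 1.2.12, whose roles were not stated. The genome build is not given in the sources used here. RSEM divides reads shared by near-identical genes by estimation, which can touch ATP5A1 and ATP5A1W. FPKM is relative to each sample, so a few very abundant genes of a sample can lower the values of its other genes. Whether they did so in liver was not tested.

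FPKM values were transformed as log2(FPKM + 1). Genes that averaged 0.1 FPKM or more in a fit entered limma 3.58.1 in R 4.3.3 (two-sided, eBayes with trend). Benjamini-Hochberg adjustment ran over all genes of the fit. A fold change on this scale understates the change of low genes. All 72 members passed the filter in every fit. HFD and ND were compared within each tissue, and the tissues and the interaction were compared in 1 fit of the 4 groups. Groups and replicate numbers came from the labels. Per the methods, both tissues came from 3 HFD and 3 ND birds. Whether a number marks the same bird in both tissues is not stated. Simulated data in which 200 of the more abundant genes were changed served to test the procedure. Alternatives were the pseudocount, the filter, median-of-ratios scaling, quantile normalization, sample weights, a replicate block, 1 fit of all samples and leaving out each sample.

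The members and lists were chosen with earlier results of these data known. Named genes were, per complex, the 3 largest called tissue differences in each direction, the 2 smallest p-values of each diet comparison, isoform families, large or catalytic subunits, and the most and least abundant member. Members named for samples that did not overlap, NDUFC2 and the ratios were chosen after their values were seen. Gene symbols are those of the files, and chromosomes are from RefSeq (GRCg7b). No sequence was analysed here. A gene that the rule names is counted with the members but is not reported here.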

Additional observations from a re-analysis of the deposited data

How the results depend on the processing

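The number of members called between the tissues, in either direction, stayed within 1.5 times of the reported 45 under the alternatives run, but its split did not: 64 higher and 1 lower under median-of-ratios scaling and 42 and 5 under quantile normalization, against 32 and 13. The calls over all genes moved as well. They were 4841 higher and 6199 lower under the first scaling and 5376 and 5673 under the second, against 2528 and 9634. Under median-of-ratios scaling the log2 fold changes, liver over abdominal fat, turned positive for ATP5E (0.38), ATP5I (0.26), COX16 (0.17), COX6C (0.094), COX7A2 (0.16), COX7A2L (0.24), NDUFA4 (0.21), NDUFA5 (0.19), NDUFS6 (0.36), SDHA (0.28) and UQCRB (0.15), and for NDUFS5 (0.46), which is outside the rule for named genes. Under quantile normalization they turned positive for COX16 (0.45), COX7A2L (0.037), NDUFA5 (0.00032) and SDHA (0.037). In the liver diet comparison SDHC was at 0.0013 without the second ND sample, in a range of -0.13 to 0.0013 over the samples left out, and UQCRB at -0.00461 with sample weights. Leaving out 1 sample gave 28 to 34 higher and 11 to 13 lower members between the tissues, and 0 called members in each diet comparison and in the interaction. NDUFS6 lost its tissue call without each of 8 samples (-0.33 to -0.22) and ATP5S without each of 7 (0.25 to 0.33).

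Pairing was checked because both tissues came from the same birds and the groups share replicate numbers. Deviations of liver and fat samples with the same number from their group means correlated across all genes at 0.162 to 0.224 in HFD and 0.069 to 0.229 in ND. Pairs with other numbers were at -0.20 to -0.007. Deviations cancel within a group, so these negative values follow from the positive ones and are no separate observation. With the bird as a block, that is the liver and fat samples of 1 diet and number, 34 members were higher and 13 lower in liver (NDUFS6 lost its call), and 0 were called in the interaction. HFD and ND samples of 1 number are different birds, and with the number as a block 0 were called in the diet comparisons. With these blocks, 3 members of the fat comparison, all higher in HFD, had an unadjusted p under 0.05, against 392 of 15412 genes higher. In the interaction 16 lower and 1 higher members did so, against 614 and 1697 of 15442 genes. With sample weights 7 members of the liver comparison did so, all lower in HFD, against 837 of 14510 genes lower. Median-of-ratios scaling gave 22 such members of the interaction, all lower, against 988 of 15396 genes lower. Sample weights gave 21, all lower, against 701 of 15442 genes lower. Leaving out 1 sample, the interaction gave 5 such members, all lower, without HFD liver 1 or ND liver 3. Of all genes, 376 of 15470 and 485 of 15481 were lower in these fits. The interaction gave 5 lower and 1 higher without HFD liver 2, against 500 and 1031 of 15456 genes. Without ND liver 1 it gave 13 and without ND fat 2 it gave 14, all lower. Of all genes, 679 of 15464 and 551 of 15428 were lower there. The liver comparison gave 1 such member lower in HFD without each sample other than ND liver 1, and 5 without that one. Of all genes, 361 to 526 were lower in the former fits and 735 in the latter. Such members higher in HFD numbered 1 without ND liver 1, 2 without ND liver 3 and 0 without each other sample. Of all genes, 2286, 984 and 870 to 1325 were higher in these fits. The genes tested in each of these liver fits numbered 14469 to 14534. The depth is unknown, and 3 samples a group limit the diet comparisons to large changes.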

Other observations

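The citric acid cycle and pyruvate dehydrogenase genes, which feed electrons to the chain, were measured for 17 of 18 listed. Between the tissues 8 were higher and 6 lower in liver by limma at the deposited scale, against 16.4% and 62.4% of all genes, and members of 1 enzyme step went in opposite directions. SUCLA2, the ATP-forming beta subunit of succinyl-CoA synthetase, had 1.29 to 3.57 FPKM in liver and 24.5 to 29.3 FPKM in abdominal fat (log2 fold change -3.04, adjusted p = 5.1e-09 with limma), whereas SUCLG2, the GTP-forming beta subunit, had 23.1 to 39.0 FPKM in liver and 9.73 to 12.1 FPKM in abdominal fat (1.50, adjusted p = 4.1e-08 with limma). IDH3A, a subunit of the NAD-dependent isocitrate dehydrogenase, had 7.54 to 20.2 FPKM in liver and 38.7 to 57.7 FPKM in abdominal fat (-2.13). IDH2, the NADP-dependent enzyme of the mitochondrion, had 283 to 341 FPKM in liver and 79.2 to 91.4 FPKM in abdominal fat (1.85). CS, citrate synthase, was lower in liver (-1.05), and the pyruvate dehydrogenase genes PDHA1 (0.86), PDHB (1.03), DLAT (1.25) and PDHX (1.25) were higher. DLAT had 47.3, 54.0 and 67.0 FPKM in HFD liver and 25.3, 29.9 and 40.4 FPKM in ND liver (0.81, adjusted p = 0.23 with limma). PDHX had 24.6, 24.1 and 26.7 FPKM in HFD liver and 16.2, 13.8 and 18.5 FPKM in ND liver (0.61, adjusted p = 0.21 with limma). Both were above ND in every HFD liver, were chosen after their values were seen, and did not pass the adjusted threshold.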
